A study of Mus musculus with 26 samples.

Results

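The genes described here encode the enzymes, transporters and regulators of glycolysis and the pentose phosphate pathway, measured in 8 mouse blood progenitor populations. Of 36 listed genes, 32 were measured by at least 1 probe set annotated to a single gene, among 18194 genes in the table. Where a gene had several such probe sets, the brightest, by its mean across the 26 arrays, stood for the gene. Eno1, G6pdx, Gpi1 and Pfkfb1 had no probe set of that kind and are not analysed here, so the first enzyme of the pentose phosphate pathway and the step between hexokinase and phosphofructokinase are missing.

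Total RNA of C57/Bl6 mice, labelled as males at an age of 2 month, was hybridised as biotin-labelled cRNA to 1-colour Affymetrix arrays. The populations from bone marrow were MPPFL- (5 arrays) and MPPFL+ (3 arrays), 2 fractions of multipotent progenitors, followed by CMP, GMP and CLP (3 arrays each), named in the field as common myeloid, granulocyte-macrophage and common lymphoid progenitors. The thymus gave the double-negative stages DN1, DN2 and DN3 (3 arrays each). The population labels spell the multipotent fractions MMPFL- and MMPFL+, and the CLP arrays carry ALP in another label. No label gives the sort gates, or says whether replicates came from separate animals or pools, so p-values measure the spread between these arrays, which may be technical.

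Glycolysis splits glucose into pyruvate in the cytosol with a small yield of ATP. Hexokinase traps the sugar, phosphofructokinase commits it, and lactate dehydrogenase converts pyruvate and lactate into each other. The pentose phosphate pathway branches off after hexokinase and supplies NADPH, which myeloid cells use in the oxidative burst, and ribose for nucleotides. In early thymocytes, glucose uptake is known to follow cytokine, Notch and receptor signals.

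Values are on the log2 scale of the deposited table and belong to a probe set, so a level of 1 gene is not set against that of another. The lowest value, 2.17, was shared by 30.2% to 37.1% of the probe sets of an array, and a population with all its arrays within 1 log2 unit of it is called near the floor. Flt3 averaged 13.31 in MPPFL+ and 10.99 in MPPFL-, Mpo averaged 16.11 in GMP, Il7r 13.23 in CLP, and Il2ra 13.14 in DN2 and 13.16 in DN3, which fit the names of these populations. These genes were not confined to them. Flt3 averaged 13.58 in CLP, Mpo 14.15 in CLP and 14.01 in MPPFL-, and Il7r 12.89 in DN2. Xist, the transcript of the inactive X chromosome of females, went against the male label on 4 thymic arrays. DN1 replicates 1 and 3 read 12.21 and 13.59, DN2 replicates 2 and 3 read 12.99 and 6.30, and every other array read at most 4.45. Results of DN1 and DN2 are therefore also given without these 4 Xist arrays, which leaves 1 array each for DN1 (replicate 2) and DN2 (replicate 1). A test on such a lone array assumes that it varies like the arrays of the other populations, so these values describe 1 array and neither keep nor end a call. The 24 probe sets for spiked-in control RNA sorted the arrays into 6 clusters. MPPFL-, MPPFL+ and CLP shared 1 cluster, DN1 and DN2 shared another, GMP had its own, and CMP and DN3 were each split, with DN3 replicate 3 beside CMP replicates 2 and 3. An alternative fit with these clusters as a random block is called the spike-in block. The excess of the actin 3′ signal over its 5′ signal, a measure of RNA length, averaged 3.74 in MPPFL- and 1.49 in GMP, with 2.27 to 2.82 in the other populations.

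The 8 population means differed by the F test (limma, Benjamini-Hochberg adjusted over all genes, threshold 0.05) for 28 of the 32 members. The same test called 58.1% of all 18194 genes, and 91.8% of the 9097 genes whose mean was at or above that of the median gene. Those 4 members that did not pass were Eno3 (adjusted p = 0.0744 by limma) and Eno2, Slc16a3 and Pdk4, which lay near the floor on all 26 arrays. Eno3 encodes the muscle form of enolase, Eno2 its neuronal form, Slc16a3 a lactate exporter of glycolytic cells and Pdk4 a kinase that shuts off pyruvate dehydrogenase. Pdk2, a kinase of the same family, was near the floor in 5 populations and read 3.32, 4.13 and 2.32 in MPPFL+, 4.65, 3.27 and 2.94 in CLP, and 3.88, 3.41 and 3.41 in DN3. Against near-floor populations it was called in CMP against MPPFL+ (-1.04), DN1 against CLP (-1.35), DN3 against DN2 (1.29) and CLP against GMP (1.37). DN3 had no array near the floor, so the size of DN3 against DN2 is a lower bound. MPPFL+ and CLP each had 1 array near the floor, so the other sizes are uncertain. Of these calls, CMP against MPPFL+ was made in only 1 of 6 fits with an array left out (with -0.61 to -1.08 in the others). DN1 against CLP was not called without CLP replicate 1 (-0.84). Without the Xist arrays, with the lone DN1 or DN2 array, the thymic differences were -1.33 and 1.28.

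Among the 28 members above the floor on most arrays (all but Eno2, Slc16a3, Pdk4 and Pdk2), the highest mean fell in GMP for 15, in MPPFL- for 8, in MPPFL+ for 2, and in CMP, DN2 and DN3 for 1 each. No member had its highest mean in CLP or DN1. The lowest mean fell in DN3 for 9, in DN1 for 6, in DN2 for 4, in GMP and CLP for 3 each, in CMP for 2 and in MPPFL- for 1. The distance between the highest and the lowest population mean was over 2 log2 units for 14 members and under 1 for 5, with a median of 2.03, while the pooled SD between arrays of a population had a median of 0.294. Since these are bulk samples, fewer cells of a type and less RNA per cell cannot be told apart here or in what follows.

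**Figure D1:**
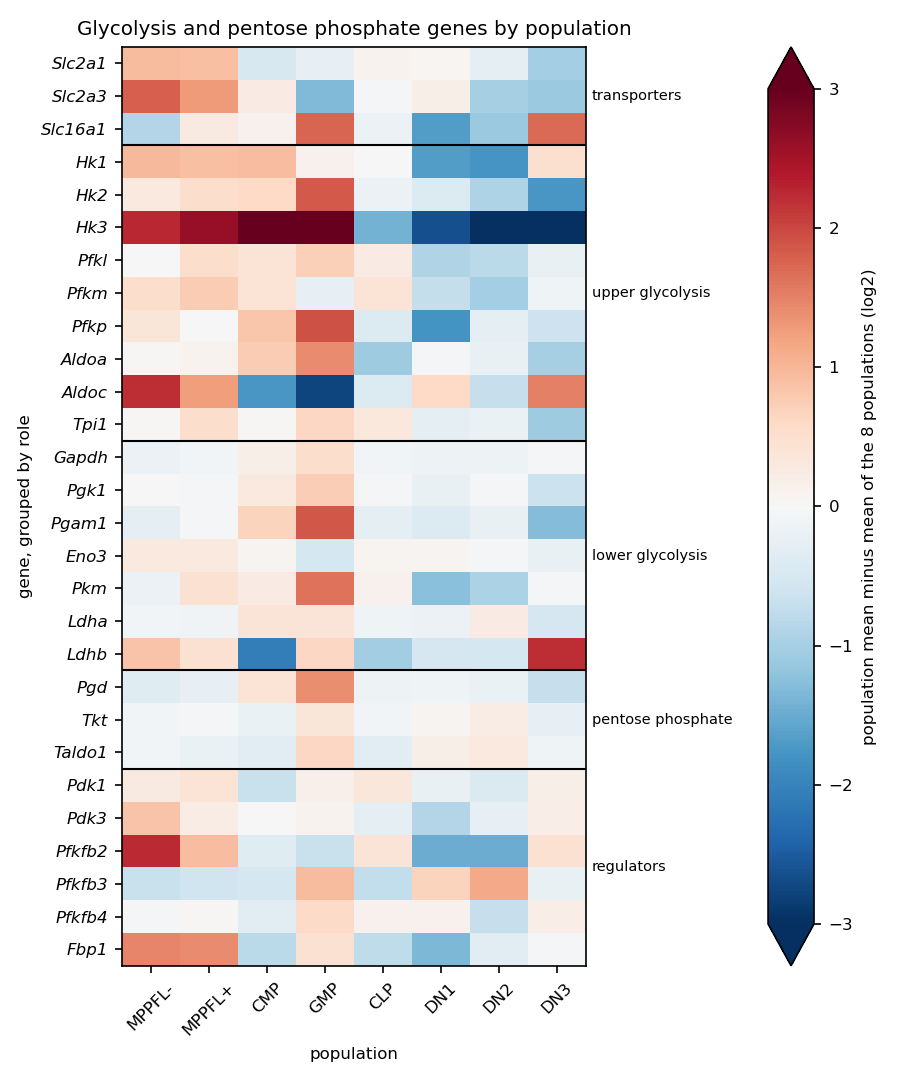
Mean log2 value of 28 members in each population (columns in the order MPPFL-, MPPFL+, CMP, GMP, CLP, DN1, DN2, DN3), shown as the difference from that gene's mean over the populations, with members grouped by role and colours saturating at 3 log2 units either way. GMP holds the highest mean of 15 members, and the DN columns hold the lowest mean of 19.

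Across the 8 comparisons, the members were called most often in the steps that involve GMP and in the last thymic step. In GMP against CMP, 17 members were higher and 2 lower, or 59.4% of the 32, where 21.4% of all genes were called (13.8% higher and 7.63% lower). In CLP against GMP, 4 were higher and 17 lower (65.6%), where 28.3% of all genes were called, 16.7% higher and 11.6% lower. In DN3 against DN2, 10 were higher and 9 lower (59.4%), where 31.1% of all genes were called, 16.7% higher and 14.4% lower. The members are brighter than most genes, and of the 28 members at or above the median gene 67.9% were called in GMP against CMP, where 34.7% of such genes were, 71.4% in CLP against GMP, where 45.6% were, and 64.3% in DN3 against DN2, where 52.4% were. GMP is in both of the first comparisons, so their calls are not separate evidence.

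In percentage points, the other comparisons gave shares closer to those of all genes, or lower. In CMP against MPPFL+, 4 members were higher and 8 lower (37.5%), where 24.1% of all genes (5.39% higher and 18.7% lower) and 39.4% of those at or above the median gene were called. With quantile normalization that split became 8 higher and 8 lower. In DN1 against CLP, 2 were higher and 11 lower (40.6%), where 26.9% of all genes (8.03% higher and 18.8% lower) and 46.0% of those at or above the median gene were called. In CLP against MPPFL+, no member was higher and 5 were lower (15.6%), where 6.54% of all genes were called, 2.53% higher and 4.01% lower. Of the 28 members at or above the median gene 17.9% were called there, where 8.39% of such genes were. As a ratio of shares this excess was larger than that in DN3 against DN2. In DN2 against DN1, 1 was higher and 2 lower (9.38%), where 8.11% of all genes were called, 3.99% higher and 4.12% lower. At or above the median gene, 10.7% of members and 12.8% of genes were called there. In MPPFL+ against MPPFL-, Tpi1 alone was called (3.13%), where 15.9% of all genes were (10.6% higher and 5.25% lower). At or above the median gene, 3.57% of members and 25.4% of genes were called there. However, 4 to 8 members were called under 6 of the alternative settings that keep all arrays, and 5 without MPPFL+ replicate 3. Probe sets other than the brightest were also called there for Pfkp (-3.78), Pdk1 (0.85), Slc2a3 (-0.63), Hk3 (0.86) and Hk1 (1.10, where the set used had -0.08). The other 2 probe sets of Tpi1 were not called (0.48 and 0.52).

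The median log2 fold change over the 32 members was 0.51 in GMP against CMP and -0.46 in CLP against GMP, while that of all genes was 0 in both. For genes at or above the median gene it was 0.17 in each of these comparisons. The median of the members was -0.25 in CLP against MPPFL+, -0.13 in CMP against MPPFL+, -0.11 in DN1 against CLP and -0.00 in DN3 against DN2. Genes at or above the median gene had 0.01, -0.35, -0.29 and 0.05 in these comparisons, and so were lower than the members in CMP against MPPFL+ and in DN1 against CLP. The members' value of -0.00 in DN3 against DN2 joins members that moved in opposite directions, and is described by role below.

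**Figure D2:**
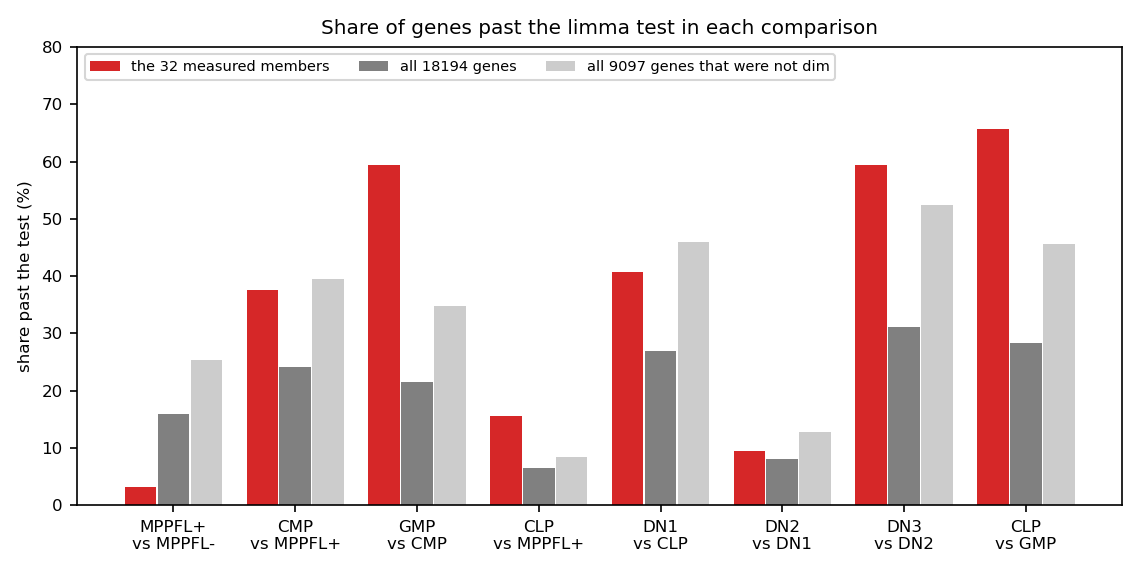
Percent of the 32 members called in either direction in each of the 8 comparisons (limma, adjusted p threshold 0.05), beside the percent of all 18194 genes and of the 9097 genes at or above the median gene (not dim). In percentage points, the members exceed all genes most in GMP against CMP (59.4% against 21.4%) and in CLP against GMP (65.6% against 28.3%).

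Several groups of members shared one profile over the 8 population means, given here as a description over 8 points. Among 378 pairs of the 28 members above the floor, Pearson's r had a median of 0.259 and was over 0.8 in 37 pairs. Pgk1 and Pgam1 had r of 0.985, Pgam1 and Pgd 0.971, Hk2 and Hk3 0.956, Pgk1 and Pgd 0.929, Pfkl and Pkm 0.928, and Gapdh and Pgd 0.928. The most opposed pairs were Pfkm with Pfkfb3 (-0.911), Aldoc with Pgd (-0.859) and Aldoc with Ldha (-0.818). All these points share the same arrays and their normalization.

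The RefSeq promoters of these co-varying genes (GRCm38.p6, 250 bases before to 50 after the listed start) are shown for Hk2, Hk3, Pgam1 and Pgk1, each of which has a single listed promoter and its highest mean in GMP. Capitals mark ACGTG or GCGTG on either strand, the core of the element bound by hypoxia-inducible factors. ACGTG is also part of the E-box CACGTG, which Myc family proteins bind. Each line reads 5′ to 3′ on the strand of the gene.
Hk2 (chr6:82774405-82774704, minus strand): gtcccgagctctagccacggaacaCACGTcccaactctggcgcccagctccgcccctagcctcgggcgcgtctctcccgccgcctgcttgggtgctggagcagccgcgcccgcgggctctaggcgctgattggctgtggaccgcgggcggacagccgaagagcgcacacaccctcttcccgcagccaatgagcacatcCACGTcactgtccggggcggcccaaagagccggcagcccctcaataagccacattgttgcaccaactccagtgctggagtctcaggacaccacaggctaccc
Hk3 (chr13:55021336-55021635, minus strand): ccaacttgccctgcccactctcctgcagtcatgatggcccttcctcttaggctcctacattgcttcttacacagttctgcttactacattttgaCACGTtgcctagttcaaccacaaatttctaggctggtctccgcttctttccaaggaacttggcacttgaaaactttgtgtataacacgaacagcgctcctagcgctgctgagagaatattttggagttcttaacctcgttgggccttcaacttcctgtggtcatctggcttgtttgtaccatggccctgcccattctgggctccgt
Pgam1 (chr19:41911621-41911920, plus strand): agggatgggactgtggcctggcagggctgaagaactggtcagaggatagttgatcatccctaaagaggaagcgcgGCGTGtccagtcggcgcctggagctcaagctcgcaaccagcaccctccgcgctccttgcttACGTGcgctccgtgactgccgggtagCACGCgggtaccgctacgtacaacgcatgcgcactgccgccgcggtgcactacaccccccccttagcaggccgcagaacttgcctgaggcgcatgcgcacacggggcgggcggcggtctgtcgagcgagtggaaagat
Pgk1 (chrX:106186850-106187149, plus strand): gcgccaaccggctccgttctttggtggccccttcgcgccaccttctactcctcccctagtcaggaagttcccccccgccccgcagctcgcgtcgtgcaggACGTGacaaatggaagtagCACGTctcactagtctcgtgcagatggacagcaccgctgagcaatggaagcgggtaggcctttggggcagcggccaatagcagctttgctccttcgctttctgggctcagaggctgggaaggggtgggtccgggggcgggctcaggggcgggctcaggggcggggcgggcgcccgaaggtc

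Hk3 held 1 match, Hk2 and Pgk1 held 2 each, and Pgam1 held 3. Of the 32 measured members, 31 had a listed promoter, with 46 promoters in all. ACGTG or GCGTG occurred in 36 of these 46 (78.3%), in at least 1 promoter of 28 of the 31 members, and in 14380 of 32851 promoters of the same length genome-wide (43.8%). ACGTG alone occurred in 47.8% of member promoters and 19.6% of all, GCGTG in 54.3% and 32.4%, and CACGTG in 13.0% and 7.15%. The member promoters had a median GC content of 59.8%, against 52.7% for all, and the part of base composition in these shares was not tested. A match is a description of the letters and not of binding.

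Among the transporters, the probe sets used for the glucose carriers were highest in the multipotent fractions. Slc2a3 encodes GLUT3, a high-affinity carrier, and read 12.01, 12.10, 12.21, 12.15 and 11.99 in MPPFL-, 11.68, 11.78 and 11.32 in MPPFL+, 10.55, 10.45 and 10.70 in CMP, and 9.07, 8.93 and 8.98 in GMP. Every step in this series was free of overlap. Slc2a3 was 2.04-fold lower in CMP than in MPPFL+ (log2 fold change -1.03 ± 0.20 SE, adjusted p = 0.000863 by limma) and 2.98-fold lower in GMP than in CMP (-1.57 ± 0.20, adjusted p = 1.01e-05 by limma). With the spike-in block the call in CMP against MPPFL+ was lost and that in GMP against CMP was kept. Slc2a3 was also lower in CLP than in MPPFL+ (10.10, 10.47 and 10.16 in CLP, adjusted p = 0.000127 by limma) and higher in CLP than in GMP (1.25 ± 0.20). In the thymus it read 8.80, 9.39 and 9.73 in DN2, against 10.15, 10.85 and 10.45 in DN1 (-1.18 ± 0.20, adjusted p = 0.000669 by limma), and 8.95, 9.52 and 9.15 in DN3. With the 4 Xist arrays left out, the lone DN2 array (8.80) differed from the lone DN1 array (10.85) by -2.05, a difference between 2 arrays with no replicate check. Another Slc2a3 probe set was called lower in DN3 than in DN2 (-1.43) and higher in DN1 than in CLP (0.80). The set used had -0.10 and 0.24 in these comparisons, neither of them called. The remaining sets were close to the lowest value.

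Slc2a1 encodes GLUT1, the carrier that growth signals bring to the surface of lymphocytes. It read 10.26, 9.23 and 9.11 in CMP, against 10.74, 10.80 and 11.17 in MPPFL+, and the 2 groups did not overlap. The difference was 2.58-fold (-1.37 ± 0.31, adjusted p = 0.00275 by limma), and with the spike-in block it was -1.29 (adjusted p = 0.097 by limma). Its value in GMP (9.71, 9.77 and 9.78) lay within the range of CMP. On this probe set DN3 had the lowest mean (8.88, 9.22 and 8.85), but no thymic step was called. Another Slc2a1 probe set was called higher in GMP than in CMP (2.09) and in DN3 than in DN2 (1.45). That set was called lower in DN1 than in CLP (-2.32). The remaining set had 0.35, 0.14 and -0.88 in these comparisons, none of them called.

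Slc16a1 encodes MCT1, which carries lactate and pyruvate across the plasma membrane in either direction, and behaved unlike the glucose carriers. It read 13.08, 13.00 and 13.06 in GMP, against 10.55, 12.28 and 11.47 in CMP. All GMP arrays were higher, but the CMP arrays lay far apart. The difference of 1.61 ± 0.44 (adjusted p = 0.0116 by limma) became 1.17 (adjusted p = 0.0794 by limma) without CMP replicate 1. The largest change of a transporter was in DN3, where it read 13.01, 13.45 and 12.50, against 10.29, 9.94 and 10.30 in DN2, without overlap. The difference was 7.02-fold (2.81 ± 0.44, adjusted p = 4.65e-05 by limma), and 2.70 on the log2 scale against the lone DN2 array without Xist. DN1 read 9.29, 8.68 and 10.86, lower than 11.15, 11.08 and 11.13 in CLP (-1.51 ± 0.44, adjusted p = 0.0133 by limma). The call was lost without DN1 replicate 2 (-1.05, adjusted p = 0.1 by limma) or DN1 replicate 1 (-1.35, adjusted p = 0.0531 by limma).

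The 3 hexokinases, which phosphorylate glucose as it enters the cell, each had a profile of their own. Hk3, the hexokinase typical of myeloid cells, had the widest range of all members, 10.4 log2 units between population means. It read 13.20, 13.07 and 13.02 in GMP, against 11.67, 11.11 and 11.18 in CMP (3.43-fold, 1.78 ± 0.30, adjusted p = 0.000229 by limma), with no overlap. CMP against MPPFL+ was 0.78 (adjusted p = 0.0688 by limma). In CLP Hk3 read 6.66, 6.24 and 6.57, against 10.37, 10.54 and 10.70 in MPPFL+, 16.5-fold lower (-4.05 ± 0.30, adjusted p = 1.51e-08 by limma) and 97.6-fold lower than in GMP. On this probe set it went on falling in the thymus, with 5.72, 5.65 and 4.47 in DN1, 4.50, 3.29 and 3.45 in DN2, and 2.21, 2.87 and 2.87 in DN3, near the floor. DN1 against CLP was -1.21 ± 0.30 (adjusted p = 0.00486 by limma) and DN2 against DN1 -1.53 ± 0.30 (adjusted p = 0.00251 by limma), although DN2 replicate 1 lay above DN1 replicate 3. The other probe set of Hk3 was not called in DN2 against DN1 (-0.04). It was called lower in DN1 against CLP (-1.77) and in DN3 against DN2 (-1.21). DN3 was at least 2.14-fold lower than DN2 (adjusted p = 0.00797 by limma), a call lost without DN2 replicate 1 (-0.72, adjusted p = 0.0629 by limma) or DN3 replicate 1 (-0.88, adjusted p = 0.055 by limma).

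The neutrophil markers (Ngp, Camp, Ltf, S100a8 and S100a9) averaged 9.16 to 9.95 on the GMP arrays, 7.10 to 9.12 on CMP and 3.33 to 8.25 on MPPFL+, and 4 of the 5 were near the floor in CLP and in each DN stage. The macrophage and dendritic cell markers averaged 8.39 to 8.46 on GMP, 6.37 to 6.59 on CMP, 6.37 to 6.65 on CLP and 2.61 to 2.89 on DN3. Both lists were highest on GMP, as Hk3 was. The macrophage and dendritic cell list was alike on CMP and CLP, where Hk3 averaged 11.32 and 6.49. On MPPFL-, where Hk3 averaged 10.17, the neutrophil list averaged 3.26 to 4.71 and the macrophage and dendritic cell list 4.27 to 4.62. The part of these markers in the values of Hk3 and of other genes high in GMP was not tested.

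Hk2, the inducible form found in growing cells, read 12.09, 11.77 and 12.05 in GMP, against 10.18, 11.11 and 10.90 in CMP, without overlap (2.36-fold, 1.24 ± 0.33, adjusted p = 0.0107 by limma). Without CMP replicate 1 the difference was 0.96 (adjusted p = 0.0673 by limma). CLP read 9.72, 10.05 and 10.09, which was 4.04-fold lower than GMP (adjusted p = 9.41e-05 by limma). In DN3 it read 7.70, 9.09 and 8.38, against 9.16, 9.21 and 9.24 in DN2 (-0.82, adjusted p = 0.0743 by limma).

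Hk1, the form present in most tissues, ran the other way in GMP, with 11.57, 10.99 and 11.35, against 11.85, 12.07 and 12.41 in CMP (-0.81 ± 0.25, adjusted p = 0.0244 by limma). With CMP replicate 3 left out the difference was -0.66, with GMP replicate 2 left out -0.65 and with GMP replicate 3 left out -0.83 (adjusted p = 0.051 by limma), none of which was called. CLP was lower than MPPFL+ (12.28, 12.36 and 11.58) by 0.89 ± 0.25 on the log2 scale (adjusted p = 0.0343 by limma), a call that held only without MPPFL+ replicate 3 among the 6 arrays left out in turn (-1.14), with values of -0.75 to -0.94 otherwise. Its strongest changes were in the thymus. DN1 read 9.45, 9.71 and 9.34, against 11.27, 11.11 and 11.16 in CLP (3.21-fold lower, -1.68 ± 0.25, adjusted p = 3.84e-05 by limma). DN3 read 11.65, 11.73 and 11.62, against 9.89, 9.61 and 8.75 in DN2, with no overlap in either comparison. The increase in DN3 was 4.76-fold (2.25 ± 0.25, adjusted p = 7.29e-07 by limma), and against the lone DN2 array without Xist (9.89) it was 1.77 on the log2 scale. Thus Hk1 was high in DN3 while Hk3 was near the floor and Hk2 had its lowest mean.

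**Figure D3:**
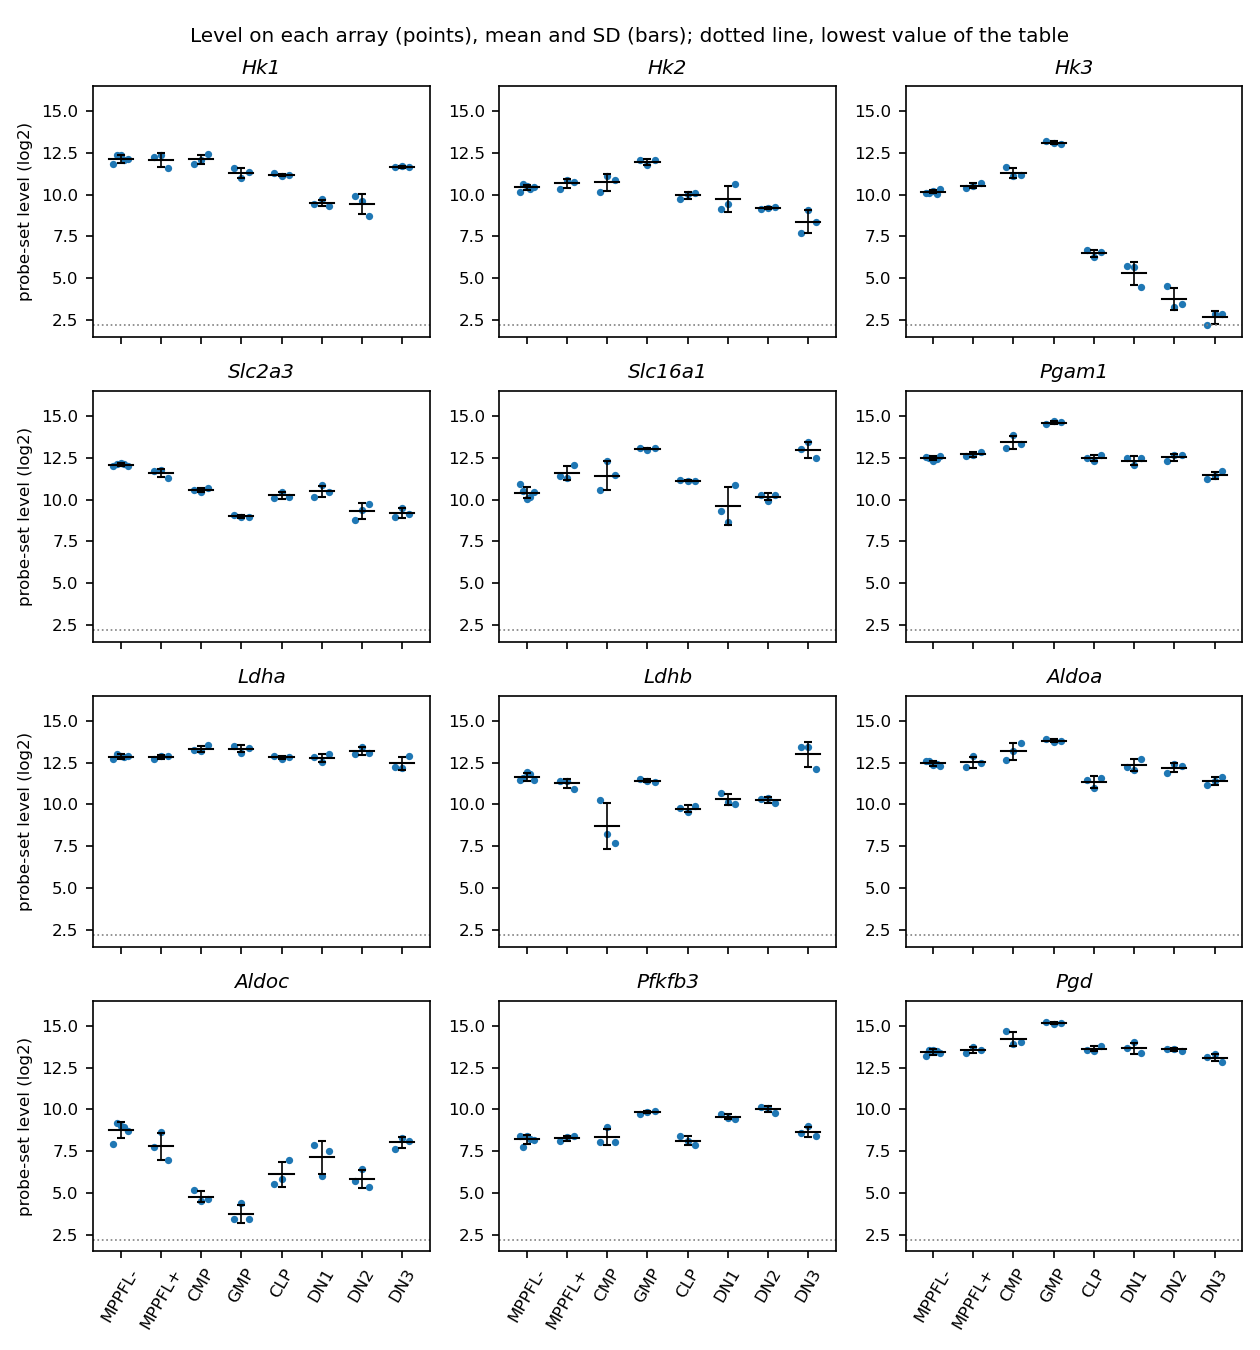
Log2 value of selected members on each of the 26 arrays (1 point per array, bars at the population means, populations in the order MPPFL-, MPPFL+, CMP, GMP, CLP, DN1, DN2, DN3). Hk3 runs between 13.20 in GMP and 2.21 in DN3, while Hk1, Ldhb and Slc16a1 are high again in DN3.

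The phosphofructokinase subunits together form the committing enzyme of glycolysis. Pfkp, the platelet-type subunit, read 10.92, 11.14 and 11.09 in GMP, against 9.63, 10.22 and 10.08 in CMP (2.10-fold, 1.07 ± 0.16, adjusted p = 6.28e-05 by limma). CMP was in turn higher than MPPFL+ (9.01, 9.10 and 9.26, adjusted p = 0.000587 by limma), so that MPPFL+, CMP and GMP formed a series without overlap. Pfkp was 4.99-fold lower in CLP (8.67, 8.79 and 8.72) than in GMP. It read 7.64, 7.43 and 6.94 in DN1, lower than CLP (-1.39 ± 0.16, adjusted p = 2.44e-06 by limma), and 8.83, 9.05 and 8.68 in DN2, higher than DN1 (1.52 ± 0.16, adjusted p = 2.8e-06 by limma). It was the only member called higher in DN2 than in DN1, and the lone DN2 and DN1 arrays without Xist differed by 1.40 on the log2 scale. The other 2 probe sets of Pfkp were dim, with means of 3.89 and 2.44 over the arrays. Neither was called in DN1 against CLP (0.72 and 0) or in DN2 against DN1 (0.37 and -0.002).

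Pfkm, the muscle-type subunit, read 7.64, 7.40 and 8.00 in DN1, against 9.12, 8.47 and 8.86 in CLP (-1.14 ± 0.24, adjusted p = 0.00109 by limma). DN3 read 8.22, 8.35 and 8.28, against 7.37, 7.34 and 7.44 in DN2 (0.90 ± 0.24, adjusted p = 0.00561 by limma), and against the lone DN2 array without Xist the difference was 0.92. Pfkl, the liver-type subunit, was lower in DN1 (9.74, 9.57 and 9.34) than in CLP (10.78, 10.38 and 10.97), by 1.16 on the log2 scale (adjusted p = 0.000761 by limma). Of its other probe sets, 1 was also called lower (-1.31) and 1 was called higher (1.29) in that comparison. The probe sets used for the 3 subunits were lower in DN1 than in CLP without overlap, but the Pfkm call was lost with the spike-in block (-1.14, adjusted p = 0.1 by limma).

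The aldolases, which split the phosphorylated hexose, differed in direction. Aldoa, the widespread form, read 11.49, 10.97 and 11.59 in CLP, lower than 13.94, 13.76 and 13.78 in GMP (5.57-fold, adjusted p = 1.2e-07 by limma) and lower than 12.22, 12.88 and 12.49 in MPPFL+ (2.27-fold, adjusted p = 0.00283 by limma). It was higher in DN1 (12.22, 12.09 and 12.74) than in CLP, without overlap (adjusted p = 0.00345 by limma). In DN3 (11.18, 11.39 and 11.67) it was lower than in DN2 (11.90, 12.44 and 12.28), by 0.79 ± 0.24 on the log2 scale (adjusted p = 0.0152 by limma). With the lone DN1 and DN2 arrays without Xist these differences were 0.74 and -0.48. The DN3 call was lost without DN2 replicate 2 (-0.67) or DN3 replicate 1 (-0.67).

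Aldoc, the form best known from brain, had the opposite profile. It read 5.16, 4.52 and 4.66 in CMP, against 7.74, 8.63 and 6.97 in MPPFL+ (8.02-fold lower, -3.00 ± 0.50, adjusted p = 0.000186 by limma), and 3.46, 4.39 and 3.44 in GMP. CLP read 5.56, 5.82 and 6.97, which was 5.11-fold above GMP (adjusted p = 0.00118 by limma). DN3 read 7.66, 8.30 and 8.12, against 5.74, 6.44 and 5.33 in DN2, 4.56-fold higher (2.19 ± 0.50, adjusted p = 0.00205 by limma). The multipotent fractions and DN3 were thus its high populations and the myeloid ones its low populations.

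Tpi1, triose phosphate isomerase, varied little between arrays of a population, and its small changes were called in 6 comparisons. It read 13.97, 14.03 and 14.14 in MPPFL+, against 13.39, 13.51, 13.66, 13.68 and 13.57 in MPPFL- (0.49 ± 0.09, adjusted p = 0.000653 by limma). CMP read 13.43, 13.63 and 13.63, lower than MPPFL+ by 0.48 ± 0.10 on the log2 scale. With the mean of its 3 probe sets in place of the brightest, CMP against MPPFL+ was 0.073 (adjusted p = 0.981 by limma), so that fall belongs to the probe set used. GMP read 14.13, 14.16 and 14.17, above CMP by 0.59 ± 0.10, and DN3 read 12.48, 12.53 and 12.35, against 13.24, 13.44 and 13.30 in DN2 (-0.87 ± 0.10, adjusted p = 9.59e-07 by limma).

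Of the 8 measured genes of lower glycolysis, 5 rose in GMP relative to CMP and none fell. Gapdh, which takes electrons from the triose, read 15.21, 15.20 and 15.13 in GMP, against 14.79, 14.65 and 15.06 in CMP (1.27-fold, 0.34 ± 0.09, adjusted p = 0.00928 by limma). Pgk1, the first enzyme of the pathway to make ATP, read 14.42, 14.47 and 14.46 in GMP, against 14.16, 13.62 and 14.22 in CMP (1.36-fold, adjusted p = 0.0141 by limma). All GMP arrays lay above all CMP arrays for both genes, but the call of Pgk1 was lost without CMP replicate 2 (0.26, adjusted p = 0.0725 by limma).

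Pgam1, phosphoglycerate mutase, read 14.50, 14.70 and 14.62 in GMP, against 13.11, 13.86 and 13.30 in CMP (2.27-fold, 1.18 ± 0.17, adjusted p = 3.88e-05 by limma). CMP was itself higher than MPPFL+ (12.59, 12.68 and 12.87) by 0.71 ± 0.17 (adjusted p = 0.00429 by limma). CLP read 12.48, 12.28 and 12.67, or 4.38-fold lower than GMP (adjusted p = 7.63e-09 by limma). Pkm, pyruvate kinase, read 14.11, 13.85 and 13.80 in GMP, against 11.84, 12.88 and 12.89 in CMP (2.61-fold, 1.38 ± 0.24, adjusted p = 0.00024 by limma). The 3 GMP arrays were the highest of the table for each of these genes.

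In the thymus Pkm parted from the enzymes above it. DN1 read 11.30, 10.74 and 11.04 for Pkm, against 12.61, 12.29 and 12.32 in CLP (2.60-fold lower, adjusted p = 0.000172 by limma). DN3 read 12.36, 12.16 and 12.16, against 11.17, 11.36 and 11.44 in DN2 (1.87-fold higher, 0.90 ± 0.24, adjusted p = 0.00578 by limma). In the same step Pgam1 read 11.25, 11.41 and 11.70 in DN3, against 12.30, 12.68 and 12.64 in DN2 (-1.09 ± 0.17, adjusted p = 4.79e-05 by limma), and Pgk1 read 13.04, 13.20 and 12.95 in DN3, against 13.64, 13.70 and 13.67 in DN2 (-0.60 ± 0.13, adjusted p = 0.000873 by limma). No arrays overlapped in these comparisons, but the DN3 call of Pkm was lost with the spike-in block (0.77, adjusted p = 0.15 by limma). Against the lone DN2 array without Xist the differences in DN3 were 1.06 for Pkm, -0.85 for Pgam1 and -0.58 for Pgk1.

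The lactate dehydrogenase subunits, which form the enzyme in mixed tetramers, moved apart. Ldha, the muscle-type subunit, read 13.51, 13.11 and 13.39 in GMP, against 13.26, 13.21 and 13.54 in CMP, with overlap (-0.00 ± 0.17, adjusted p = 1 by limma). Ldhb, the heart-type subunit, read 11.51, 11.43 and 11.33 in GMP, against 10.28, 8.21 and 7.69 in CMP, without overlap (6.49-fold, 2.70 ± 0.45, adjusted p = 0.000195 by limma). CMP stood apart from MPPFL+ (11.41, 11.41 and 10.95) by -2.53 ± 0.45 (adjusted p = 0.000354 by limma), so that CMP was the low point between MPPFL+ and GMP. CMP replicate 1 lay above the other two CMP arrays, and without it the changes were 3.47 in GMP against CMP and -3.30 in CMP against MPPFL+. The other probe sets of Ldhb, 3 in number, had the same sign in CMP against MPPFL+.

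In DN3 Ldhb read 13.45, 13.45 and 12.13, against 10.34, 10.39 and 10.08 in DN2, without overlap (6.66-fold, 2.74 ± 0.45, adjusted p = 8.43e-05 by limma). Ldha read 12.25, 12.21 and 12.92 in DN3, against 13.04, 13.46 and 13.08 in DN2 (-0.73 ± 0.17, adjusted p = 0.00227 by limma). All DN3 arrays were above DN2 for Ldhb and below it for Ldha. Against the lone DN2 array without Xist the differences were 2.67 for Ldhb and -0.58 for Ldha.

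Some called differences of the same genes were small and rested on few arrays. Ldha was higher in CMP than in MPPFL+ (12.71, 12.90 and 12.91) by 0.49 ± 0.17 (adjusted p = 0.0415 by limma), but was called in only 1 of 6 fits with an array left out, with 0.39 to 0.53 in the others. In CLP it read 12.93, 12.71 and 12.82, lower than in GMP by 0.51 ± 0.17 (adjusted p = 0.0287 by limma), and 4 of those 6 fits did not call it. In CLP against GMP the same held for Pfkm (0.66 ± 0.24, adjusted p = 0.0428 by limma, not called in 5 of 6 fits) and Tpi1 (-0.31 ± 0.10, adjusted p = 0.0202 by limma, not called in 4 of 6 fits). Those fits gave 0.51 to 0.71 for Pfkm and -0.26 to -0.31 for Tpi1.

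The handling genes, immediate early and heat shock genes such as Fos, Jun, Egr1 and Hspa1a that respond to cell isolation, averaged 10.2 to 12.7 on the DN1 arrays, 9.03 to 12.1 on DN2 and 5.60 to 9.32 on DN3, with 8.17 to 8.74 on CLP. They were also higher on CMP, at 9.87 to 10.4, than on GMP (7.56 to 7.98) and on MPPFL+ (7.89 to 9.05), with Hspa1a averaging 9.51 in CMP, 2.83 in GMP and 2.56 in MPPFL+. Epcam, an epithelial gene in the stroma list, averaged 10.61 in DN3. Of the rest of that list, Col1a1, Col1a2 and Col3a1 were at the lowest value in DN3, and Pecam1 averaged 5.94. Klf1, a gene of the red cell list, averaged 9.11 in CMP and 2.20 to 4.43 in the other populations. As a list average, the handling genes move with the thymic changes and with the differences of CMP from MPPFL+ and GMP. Egr1 (10.11 against 10.88), Junb (5.93 against 7.63) and Ier2 (11.42 against 11.83) averaged lower in CMP than in MPPFL+, and the other handling genes higher. Fos, Ier2 and Atf3 averaged slightly higher in GMP than in CMP, and the other handling genes lower. Epcam stands out in DN3 and Klf1 in CMP, and the part of all these genes in the results was not tested.

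The 3 measured enzymes of the pentose phosphate pathway were all higher in GMP than in CMP and all lower in CLP than in GMP. Pgd, which makes NADPH and the pentose, read 15.21, 15.12 and 15.20 in GMP, against 14.69, 13.90 and 14.01 in CMP (1.97-fold, 0.98 ± 0.18, adjusted p = 0.000504 by limma). Taldo1, transaldolase, read 14.26, 14.25 and 14.14 in GMP, against 12.75, 13.35 and 13.72 in CMP (1.92-fold, 0.94 ± 0.23, adjusted p = 0.0046 by limma). Tkt, transketolase, read 15.73, 15.74 and 15.70 in GMP, against 15.18, 15.07 and 15.22 in CMP (1.48-fold, 0.57 ± 0.14, adjusted p = 0.00706 by limma). Taldo1 and Tkt join the pentoses to the sugars of glycolysis. No CMP array reached a GMP array for any of the 3 enzymes, but with the spike-in block the calls of Taldo1 (0.84, adjusted p = 0.132) and Tkt (0.45, adjusted p = 0.195) were lost by limma and that of Pgd was kept.

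Against GMP, CLP was 2.92-fold lower for Pgd (13.58, 13.51 and 13.80 in CLP, adjusted p = 1.39e-06 by limma), 1.94-fold lower for Taldo1 (13.08, 13.21 and 13.48, adjusted p = 0.0026 by limma) and 1.36-fold lower for Tkt (15.33, 15.22 and 15.29, adjusted p = 0.0249 by limma). Pgd was the only one called in CMP against MPPFL+ (0.65 ± 0.18, adjusted p = 0.0119 by limma), but not without CMP replicate 1 (0.40, adjusted p = 0.0811 by limma) or MPPFL+ replicate 1 (0.56, adjusted p = 0.0617 by limma). In CLP against GMP the spike-in block also ended the calls of Taldo1 (-0.96, adjusted p = 0.0925) and Tkt (-0.44, adjusted p = 0.243) by limma. The Tkt call in CLP was lost without any of 5 of the 6 arrays, with values of -0.41 to -0.46. In DN3 against DN2, Pgd (-0.49 ± 0.18) and Tkt (-0.47 ± 0.14) were called lower with adjusted p of 0.045 and 0.0153 by limma. Neither call held without DN3 replicate 3, where the values were -0.37 for Pgd and -0.23 for Tkt, and against the lone DN2 array without Xist the differences were -0.52 and -0.45. Tkt was also not called without DN2 replicate 2 (-0.43), and Pgd was called only without DN3 replicate 2 among the 6 arrays left out in turn. Another Tkt probe set was not called in DN3 against DN2 (0.11), and the remaining set was called lower (-1.69). In DN1 against CLP the first of these was called lower (-0.88), while the set used (0.15) and the remaining set (0.43) were not called.

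**Figure D4:**
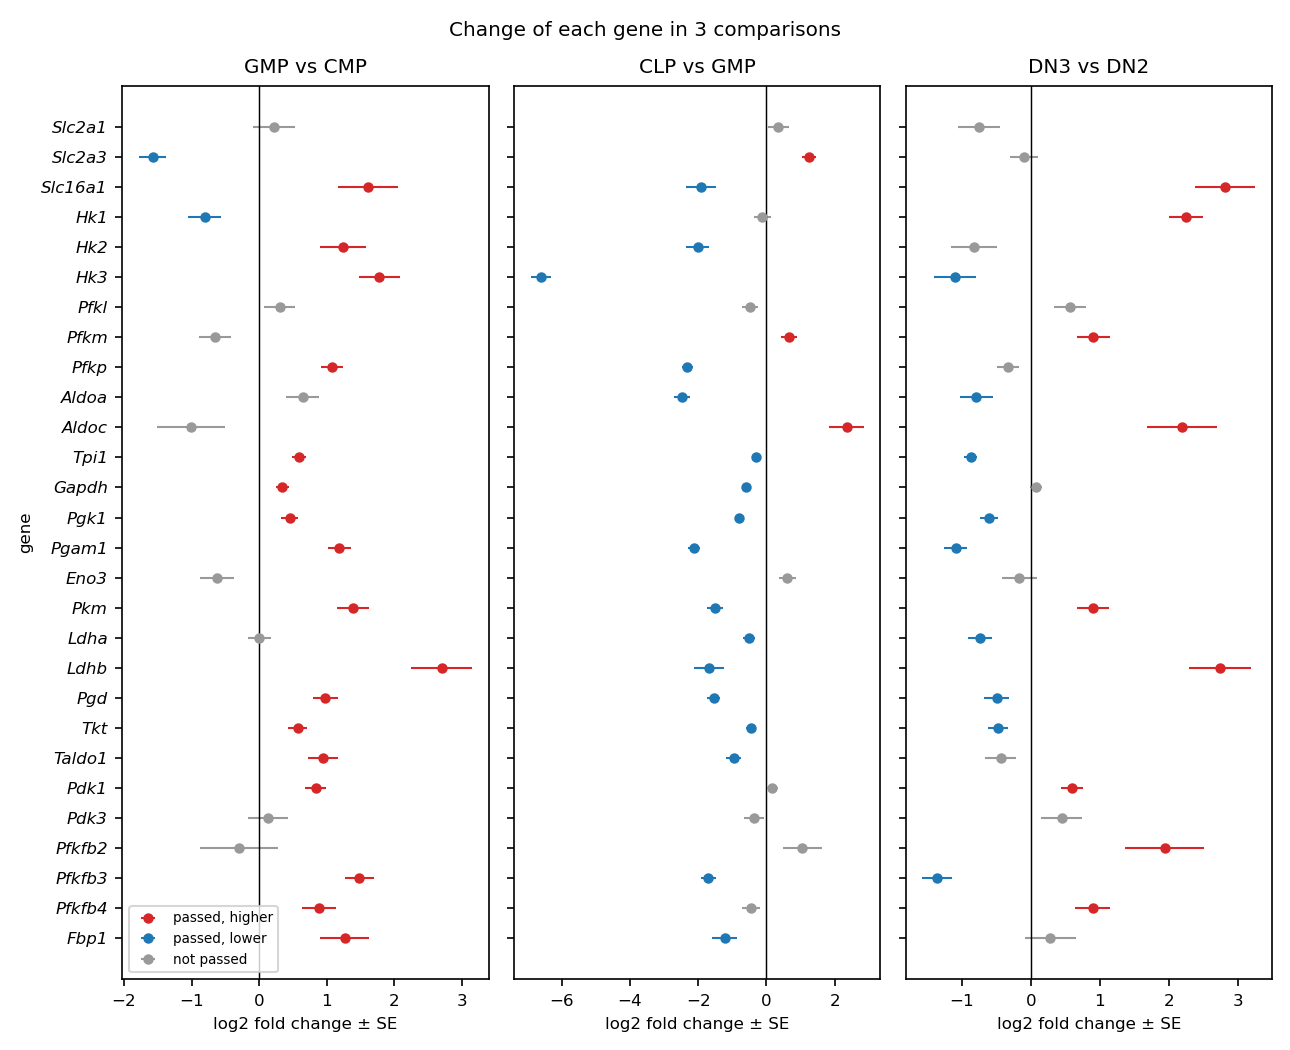
Log2 fold change of each member with its SE in GMP against CMP, CLP against GMP and DN3 against DN2, with called members in red (higher) or blue (lower) and the others in grey. Each panel has its own horizontal scale. All pentose phosphate members lie right of 0 in GMP against CMP, and in DN3 against DN2 Slc16a1, Ldhb and Hk1 lie at 2.81, 2.74 and 2.25.

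Among the regulators, Pfkfb3 makes the sugar phosphate that activates phosphofructokinase and so speeds glycolysis. It read 9.75, 9.87 and 9.88 in GMP, against 8.06, 8.93 and 8.08 in CMP, without overlap (2.78-fold, 1.48 ± 0.21, adjusted p = 4.49e-05 by limma). DN1 read 9.73, 9.50 and 9.45, against 8.41, 8.09 and 7.90 in CLP (2.69-fold, 1.43 ± 0.21, adjusted p = 4.66e-05 by limma), and DN3 read 8.56, 9.01 and 8.43, against 10.15, 10.11 and 9.81 in DN2 (-1.35 ± 0.21, adjusted p = 5.59e-05 by limma). With the lone DN1 and DN2 arrays without Xist the thymic differences were 1.37 and -1.48.

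Pfkfb2, a relative of Pfkfb3 known from heart, read 5.04, 4.34 and 3.91 in DN1, against 6.68, 6.42 and 5.81 in CLP (-1.87 ± 0.57, adjusted p = 0.0185 by limma). DN3 read 6.68, 6.26 and 6.15, against 5.32, 3.35 and 4.61 in DN2 (1.94 ± 0.57, adjusted p = 0.0129 by limma). Its arrays did not overlap in either step, and with the lone DN1 and DN2 arrays without Xist the differences were -1.97 and 1.05. Leaving out single arrays ended the calls, among them CLP replicate 1 (-1.68) and DN2 replicate 2 (1.40). Pfkfb4, another of the family, was called in GMP against CMP (0.88 ± 0.26, adjusted p = 0.0177 by limma) and in DN3 against DN2 (0.89 ± 0.26, adjusted p = 0.011 by limma), but the first was lost without CMP replicate 2 (0.74) or GMP replicate 3 (0.81), and the second without DN2 replicate 1 (0.73), DN2 replicate 3 (0.69) or DN3 replicate 2 (0.75).

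Pdk1 encodes a kinase that inhibits pyruvate dehydrogenase and so keeps pyruvate from the mitochondrion. It read 12.40, 12.41 and 12.26 in CMP, against 13.74, 13.45 and 13.11 in MPPFL+ (2.11-fold lower, -1.08 ± 0.16, adjusted p = 5.61e-05 by limma). GMP read 13.06, 13.23 and 13.27, above CMP by 0.83 ± 0.16 (adjusted p = 0.000765 by limma), without overlap in either step. On this probe set CMP was the low point between MPPFL+ and GMP. The other 3 probe sets of Pdk1 were also called lower in CMP than in MPPFL+, but in GMP against CMP none of them was called (0.36, 0.22 and -0.50), and with the spike-in block the change of the set used was 0.76 (adjusted p = 0.0658 by limma). In DN1 against CLP the change of -0.56 ± 0.16 (adjusted p = 0.0118 by limma) became 0.16 (adjusted p = 0.697 by limma) with the mean of its probe sets, and it was not called without CLP replicate 1 (-0.48). Pdk3, of the same family, averaged 10.50 in MPPFL- and 8.76 to 9.87 in the other populations, and no comparison called it.

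Fbp1 encodes fructose bisphosphatase, which runs the phosphofructokinase step backwards in gluconeogenesis. It read 9.29, 8.10 and 8.53 in CMP, against 11.21, 11.05 and 10.33 in MPPFL+ (4.67-fold lower, -2.22 ± 0.36, adjusted p = 0.00015 by limma). CLP read 8.48, 8.99 and 8.59, also without overlap with MPPFL+ (4.52-fold lower, -2.18 ± 0.36, adjusted p = 0.000419 by limma). GMP read 9.96, 10.03 and 9.72, above CMP by 1.26 ± 0.36 (adjusted p = 0.0163 by limma), a call lost without CMP replicate 2 (0.99) or GMP replicate 2 (1.20). Fbp1 therefore fell in both branches out of MPPFL+, and CLP and GMP differed by -1.22 ± 0.36 (adjusted p = 0.0151 by limma), or -1.15 without GMP replicate 2 and -1.12 without CLP replicate 1, where it was not called.

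By role, the changes in GMP against CMP, where 13.8% of all genes were higher and 7.63% lower (22.1% and 12.6% of those at or above the median gene), covered 4 higher and 1 lower of 9 upper glycolytic genes, 5 higher of 8 lower glycolytic genes, 3 of 3 pentose phosphate genes, 4 higher of 8 regulators, and 1 higher and 1 lower of 4 transporters. In DN1 against CLP, where 8.03% of all genes were higher and 18.8% lower, upper glycolysis had 1 higher and 6 lower, regulators 1 higher and 3 lower, lower glycolysis and transporters 1 lower each, and the pentose phosphate genes no call. In DN3 against DN2, where 16.7% of all genes were higher and 14.4% lower, upper glycolysis had 3 higher and 3 lower, lower glycolysis 2 higher and 3 lower, regulators 4 higher and 1 lower, transporters 1 higher, and the pentose phosphate genes 2 lower. In CLP against GMP, where 16.7% of all genes were higher and 11.6% lower, the pentose phosphate genes had 3 lower, lower glycolysis 6 lower, upper glycolysis 2 higher and 5 lower, transporters 1 higher and 1 lower, and regulators 1 higher and 2 lower.

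The calls rest unevenly on single arrays and on the spike-in clusters. Of the 19 calls in GMP against CMP, 13 held whichever array was left out and 9 held with the spike-in clusters as a random block, and for the 21 calls in CLP against GMP these numbers were 16 and 11. For the 19 calls in DN3 against DN2 they were 13 and 7, for the 13 in DN1 against CLP 9 and 6, and for the 12 in CMP against MPPFL+ 9 and 5. Those lost with that block were Tpi1, Pgam1, Ldha, Slc2a1, Slc2a3, Pdk2 and Pgd in CMP against MPPFL+, and Hk3, Pfkm, Aldoa, Slc16a1, Pdk1, Pdk2 and Pfkfb2 in DN1 against CLP. In CLP against GMP they were Pfkm, Aldoc, Tpi1, Ldha, Ldhb, Slc16a1, Pdk2, Tkt, Taldo1 and Fbp1. In GMP against CMP the calls of Hk3, Pfkp, Tpi1, Pgam1, Pkm, Ldhb, Slc2a3, Pfkfb3 and Pgd held with that block. In DN3 against DN2 those of Hk1, Tpi1, Pgk1, Pgam1, Ldhb, Slc16a1 and Pfkfb3 did. CLP against MPPFL+ and DN2 against DN1 each lie within 1 cluster. All 5 and all 3 of their calls held with it, but the block cannot test a comparison within a cluster. In the comparisons across clusters, the populations compared shared no cluster. The block cannot separate population from cluster there, so a call that held or was lost does not decide between them. Without the Xist arrays, 6 members were called higher and 5 lower in DN3 against DN2, and 2 higher and 9 lower in DN1 against CLP, in fits with 1 DN2 array and 1 DN1 array that are assumed to vary like the other populations.

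Genes next to these pathways were described from lists by their counts, beside the shares of genes that were called. Among genes at or above the median gene these shares were 22.1% higher and 12.6% lower in GMP against CMP, 13.2% higher and 32.8% lower in DN1 against CLP, and 27.2% higher and 25.2% lower in DN3 against DN2. Among all genes they were 13.8% higher and 7.63% lower, 8.03% higher and 18.8% lower, and 16.7% higher and 14.4% lower, in the same order. The lists also hold dim genes, so the share of genes at or above the median gene is too high a mark for a list with many of them. Of 11 measured genes from a list of other pentose phosphate and nucleotide sugar genes, 4 rose and none fell in GMP against CMP. Among them were Rpe (1.51) and Rpia (0.94), which interconvert the pentoses (log2 fold changes that passed the test). Of 10 genes of the pyruvate dehydrogenase complex and pyruvate entry, 5 rose and 2 fell in GMP against CMP, with Dld at 1.33 and Dlat at 1.13, both subunits of the complex, and its phosphatase Pdp2 at -1.79. Of 15 genes of the tricarboxylic acid cycle, 8 fell in DN1 against CLP and none rose, with Ogdh, a subunit of the oxoglutarate dehydrogenase, at -1.92. In DN3 against DN2, 4 of the 15 rose and 4 fell, and Ogdh was at 1.41.

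Of 20 measured isozymes and neighbours of the glycolytic steps, 7 fell and 2 rose in DN1 against CLP, among them Adpgk, an ADP-dependent glucokinase, at -2.03 and G6pc3, a glucose phosphatase, at -2.05. This list holds genes close to the lowest value in every population, such as Hkdc1, Gapdhs, Pgk2 and Pklr, so its counts rest on the other genes. Of 18 hypoxia response genes outside glycolysis, 4 rose and 1 fell in GMP against CMP. That is close to the 22.1% of genes at or above the median gene that rose. Vegfa, a vessel growth factor, was at 2.84, P4ha1, a collagen hydroxylase subunit, at 1.73, and Ndrg1 at -2.24. In DN3 against DN2, 6 rose and 4 fell, with P4ha1 at 2.46, Ndrg1 at 1.94 and Bnip3, a mitochondrial protein, at -2.07. Hif1a itself was lower in CMP than in MPPFL+ (-1.25).

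Of 13 measured regulators of glucose metabolism, 6 rose and 2 fell in DN3 against DN2. Txnip, which restrains glucose uptake, was at 4.24 and Myc, a transcription factor that induces glycolytic genes, at 3.43. Txnip was lower in DN2 than in DN1 (-2.57), and in DN1 than in CLP it was at -3.01 and Myc at -1.92. In GMP against CMP, 2 rose and 1 fell, with Tigar, a phosphatase that shifts sugar to the pentose phosphate pathway, at 1.76 and Mycn, a relative of Myc, at -6.26. In DN1 against CLP, 1 rose and 5 fell.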

How the data were processed

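Total RNA of 26 samples was measured on 1-colour arrays. The deposited table holds the authors' log2 values for 45101 probe sets. The sources used here do not give how they were summarised and normalized, and they were kept as deposited. Per the platform annotation, 34958 probe sets name 1 gene, 932 several and 9211 none, and those with 1 gene were reduced to the brightest set per gene. Levels and folds were fitted with limma 3.58.1 in R 4.3.3 (lmFit and eBayes over all 26 arrays, 18 residual degrees of freedom), with 8 contrasts and an F test, p-values two-sided and Benjamini-Hochberg adjusted over 18194 genes at 0.05. The fit was tested on simulated data. The members, lists and tests were chosen with earlier results of these data known. All members were named, with up to 3 called genes of each other list per comparison, and Flt3, Il7r, Mpo, Il2ra and Xist as checks of the labels. Alternatives were the mean of all probe sets, each probe set on its own, quantile normalization, a filter on dim genes, trend and robust variance, separate pair fits, 3′ to 5′ covariates, the spike-in clusters as a random block, a replicate block and single arrays left out. Replicate arrays of a population correlated at 0.979 to 0.998 and none were identical. Deviations of same-numbered arrays correlated between -0.48 and 0.49, with no comparison over 0.1 in all pairs, so numbers were not taken as pairs. The number of arrays limits the precision. Red cell markers averaged up to 5.20 in CMP and 3.12 elsewhere, with Klf1 at 9.11 in CMP and Hba-a1 at the lowest value in every population. B cell markers had 3 of 4 near the floor in every population.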

Additional observations from a re-analysis of the deposited data

Results flagged for a closer look

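Among the 30 members tested in the 5 MPPFL- arrays, 2 had an array far from the other four by Dixon's criterion (gap over range above 0.71). Fbp1 read 11.55 on MPPFL- replicate 1, against 10.65 to 10.87 on the others, a gap of 0.757 of the range. Slc16a3 read 2.41 on MPPFL- replicate 2, against 2.17 on the others, so that the gap spans the whole range, with all values near the floor. Populations with 3 arrays were not tested in this way.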

How the results depend on the processing

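Counts of members called changed most with the spike-in clusters as a random block and with each pair of populations fitted alone. With the spike-in block the counts were 4 in MPPFL+ against MPPFL- (1 in the fit reported), 5 in CMP against MPPFL+ (12), 9 in GMP against CMP (19), 6 in DN1 against CLP (13), 7 in DN3 against DN2 (19) and 11 in CLP against GMP (21). In pair fits they were 6 in MPPFL+ against MPPFL-, 4 in CMP against MPPFL+, 6 in GMP against CMP, 7 in DN1 against CLP and 11 in DN3 against DN2. In DN2 against DN1 the pair fit called 0 with limma (3 in the fit reported), with 5 at an unadjusted p under 0.05. For MPPFL+ against MPPFL-, the mean of probe sets gave 8, and quantile normalization, the dim filter and the 3′ to 5′ covariates gave 5 each. The covariates gave 8 in CLP against MPPFL+ (5). Without the Xist arrays DN3 against DN2 had 11, in a fit with 1 DN2 array assumed to vary like the other populations. MPPFL+ against MPPFL- had 5 without MPPFL+ replicate 3 and 2 without MPPFL- replicate 1. Leaving out single arrays gave 1 to 5, 9 to 14, 16 to 19, 4 to 7, 10 to 13, 3 to 4, 15 to 20 and 17 to 19 calls in the 8 comparisons (the order of the plot of shares), and 28 to 29 for the F test. The replicate block gave 1, 10, 19, 4, 13, 3, 19 and 20, and 28 for the F test, with 5 calls lost and 1 gained. With the mean of probe sets, Tpi1 in CMP against MPPFL+ was 0.073, Pgk1 in DN1 against CLP 0.24 and Pdk1 in DN1 against CLP 0.16, each reversed. The cause of these changes was not tested. Of 93 calls, 31 held in every alternative. Quantile normalization moved the median log2 fold change of the genes at or above the median gene by 0.22 in CMP against MPPFL+ and by -0.14 in GMP against CMP, and by under 0.1 in the other comparisons.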
